A study of Homo sapiens with 24 samples.

Results

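The chromosome 19 zinc finger genes are the 246 protein-coding genes of chromosome 19 whose symbol is ZNF followed by a number, among 58174 genes listed and 19799 listed as protein-coding. They were chosen by biotype, chromosome and symbol, without use of any measured value. In human cells 264 further ZNF-named protein-coding genes were listed on other chromosomes. Ribosomal RNA was removed from total RNA before sequencing. Cells had received either an siRNA pool directed at IGF2BP1 (siI1) or the control siRNA CEL-miR-239b (siC), and each of the 8 groups held 3 biological replicates. The established lines were A549 (lung adenocarcinoma), ES2 (ovarian clear cell carcinoma), MV3 (melanoma without pigment) and PANC1 (pancreatic ductal adenocarcinoma), harvested 72 h after transfection or, for PANC1, after 96 h, so that line and time cannot be told apart there. The knockdown was transient and partial, and no group held a second control or a rescue.

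Most of these genes encode proteins with a row of C2H2 zinc fingers, short loops in which 2 cysteines and 2 histidines hold a zinc ion and which read DNA a few bases at a time. Many carry a KRAB domain at the other end, which recruits TRIM28 (KAP1) and, through it, the H3K9 methyltransferase SETDB1 and HP1 proteins, and they are best known for silencing transposable elements. The genes arose by tandem duplication and lie in clusters on chromosome 19, whose own 3′ exons are often packed into H3K9me3 chromatin. IGF2BP1 is an RNA-binding protein of embryonic and tumour cells that protects bound mRNAs from decay, and the knockdown asks how transcript levels respond when it is lowered.

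One finger unit of each of the 3 members on which the results turn most is shown, to let a reader see the repeat that defines the family and how far its base composition differs between members. Each is the first of the fingers found in the protein, a unit of 84 bases in the last exon of the gene and within its coding sequence (hg38, GENCODE release 44). Capitals mark the codons of the 2 cysteines and the 2 histidines.
ZNF460 (chr19:57291133-57291216, plus strand, exon 3 of 3): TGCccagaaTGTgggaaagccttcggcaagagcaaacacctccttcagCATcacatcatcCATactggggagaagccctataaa
ZNF837 (chr19:58368433-58368516, minus strand, exon 3 of 3): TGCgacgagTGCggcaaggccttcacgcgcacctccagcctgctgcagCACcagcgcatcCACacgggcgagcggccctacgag
ZNF358 (chr19:7519699-7519782, plus strand, exon 2 of 2): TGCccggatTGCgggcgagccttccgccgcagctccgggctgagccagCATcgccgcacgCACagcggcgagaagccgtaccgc
The unit of ZNF460 is 50.0% G and C, against 70.2% for ZNF837 and 73.8% for ZNF358. Only the ZNF460 unit of the 3 ends in the classic TGEKP linker between fingers.

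Values are FPKM, which divide the reads of a gene by its length and by the size of the library, and all of them could be traced back to whole reads. Libraries held 3105215 to 4553326 reads in genes for A549, 6421764 to 8419467 for ES2, 15572492 to 20082702 for MV3 and 6532175 to 8472851 for PANC1. IGF2BP1 was lower in siI1 in each line, without overlap, by -1.32 for A549, -1.55 for ES2, -1.52 for MV3 and -1.83 for PANC1 on the log2 scale. Keratin genes KRT8 and KRT18 were present in A549, ES2 and PANC1, and KRT19 in PANC1. Defining markers were missing elsewhere: SFTPB and NKX2-1 of lung epithelium were at 0 in A549, MUC16 at 0 in ES2, and SOX10, TYR, DCT and S100B at 0 in MV3. PTPRC, CD3E, PECAM1 and HBB, which mark blood and vessel cells, stayed under 0.4 FPKM in every library, while ALB, a liver marker, reached 2.01 FPKM in an MV3 library. Fewer cells expressing a gene and less RNA of it per cell cannot be told apart in these bulk samples.

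The members were expressed at low levels, and far from evenly over the lines. A member was tested in a line where its 6 libraries averaged 0.5 FPKM or more. The number tested was 168 for A549, 131 for ES2, 118 for MV3 and 200 for PANC1. Of the 246, 101 passed in all 4 lines, 32 in 3, 38 in 2, 41 in 1 and 34 in none, and 2 were listed at 0 in all 24 libraries. In siC the median member was at 1.76 FPKM for A549, 0.629 for ES2, 0.286 for MV3 and 1.89 for PANC1, and 113 of the members were under 0.1 FPKM in MV3 against 31 in PANC1. Values of different lines come from tables normalised separately, so no test was made between them. At the edge of the threshold ZNF490 (0.554 FPKM) was the lowest member tested in A549 and ZNF564 (0.499 FPKM) the highest one left out. The corresponding pairs were ZNF554 (0.539) and ZNF136 (0.495) in ES2, ZNF497 (0.534) and ZNF564 (0.470) in MV3, and ZNF333 (0.516) and ZNF233 (0.471) in PANC1.

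A few members carried much of the family's signal. ZNF146, a short protein made of fingers alone (292 residues, 10 fingers), had the highest siC level in each line, at 52.9 ± 3.72 FPKM (SD, n = 3) for A549, 25.1 ± 2.59 for ES2, 44.6 ± 1.34 for MV3 and 37.2 ± 1.61 for PANC1. In A549 ZNF460 followed at 29.1 ± 1.85, well apart from ZNF260 at 14.7 ± 2.13. ZNF260, ZNF121 and ZNF587B in A549, and ZNF428 and ZNF787 in ES2, lay within each other's spread. In PANC1 ZNF780A (34.0 ± 5.15) and its neighbour ZNF780B (33.5 ± 6.07) stood beside ZNF146 and did not differ from each other beyond their spread. Elsewhere ZNF780A was at 9.40 FPKM in A549, 2.34 in ES2 and 4.55 in MV3. The 5 highest members made up 17.2% of the summed siC FPKM of all members for A549, 22.1% for ES2, 24.5% for MV3 and 21.1% for PANC1.

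The number of members tested is given by cluster, with no test of cluster membership. Members were joined into a cluster where consecutive starts lay within 1000000 bases, which gave 16 clusters. In cluster 16, the largest (59 members, chr19:55476617-58481230), most members were tested in every line, namely 53 for A549, 44 for ES2, 45 for MV3 and 48 for PANC1. In cluster 5 (36 members from ZNF101 to ZNF254, chr19:19668796-24129968) 26 were tested in PANC1 and 12 in A549, but 5 in ES2 and 7 in MV3. In cluster 9 (26 members, ZNF565 to ZNF573) 23 were tested in PANC1 and 20 in A549, against 8 in ES2 and 6 in MV3. In cluster 15 (39 members, ZNF175 to ZNF331) the numbers were 35 in PANC1, 20 in A549, 22 in ES2 and 10 in MV3. Cluster 12 (24 members) ran otherwise, with 23 in A549, 17 in ES2 and 19 in both MV3 and PANC1.

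**Figure D1:**
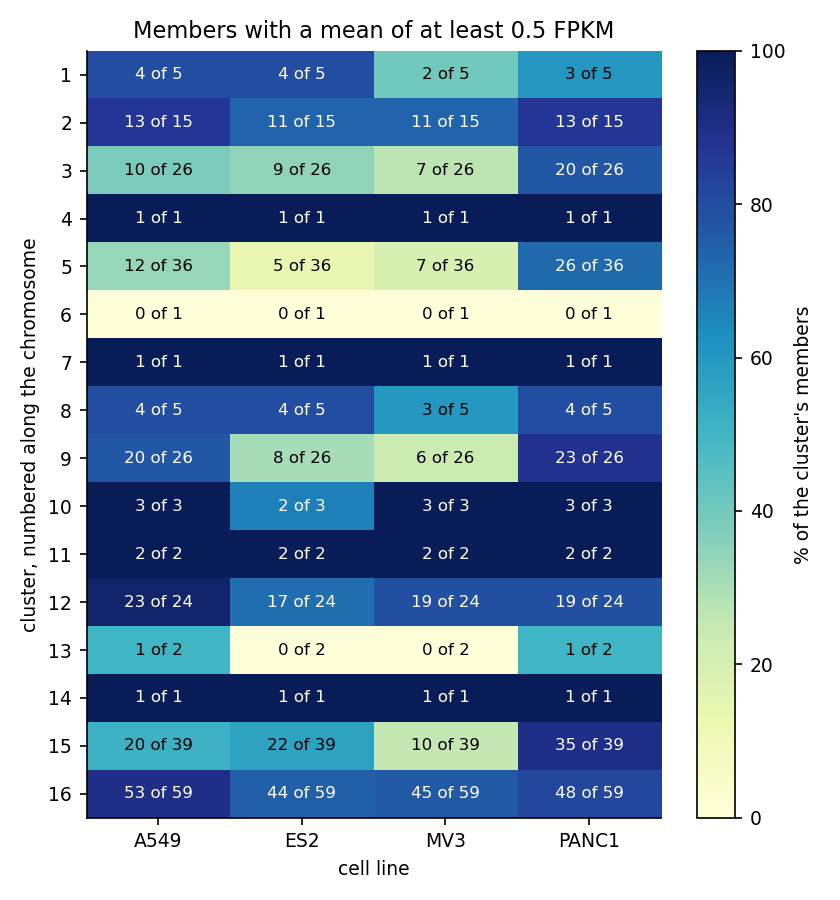
Members whose 6 libraries averaged 0.5 FPKM or more, by cluster (rows, numbered along chromosome 19) and cell line (columns). Colour and text give the share and number of each cluster's members; clusters 3, 5, 9 and 15 were sparse in MV3 and well filled in PANC1, while cluster 16 was well filled in each line.

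PANC1 alone passed the threshold for 37 members, A549 alone for 4, and ES2 and MV3 alone for none. Of the 37, 15 lie in cluster 5, 10 in cluster 15 and 8 in cluster 3. ZNF347 was at 4.84 FPKM in siC libraries of PANC1 and between 4.19 and 5.20 over all 6 libraries there, while no library of another line exceeded 0.0241 FPKM. ZNF677 was likewise between 1.84 and 2.75 FPKM in PANC1 and at most 0.00533 elsewhere. ZNF844, in cluster 3, was at 3.34 FPKM in PANC1 siC libraries and at most 0.0470 FPKM in any library of the other lines. None of these 3 members passed the test for a change after knockdown.

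Sequence similarity could blur such values, since reads that match several genes may be dropped or split and the counting rule for them is not given in the sources used here. In GENCODE transcripts, 244 members were compared with genes that do not overlap them on their own strand. Among the 244 members, 135 shared no stretch of 76 bases, the read length, with such a gene, and 22 shared at least 5% of theirs. The most affected were ZNF98 with 44.6% and ZNF417 with 27.3%. ZNF460, ZNF837, ZNF358, ZNF146, ZNF121, ZNF787 and ZNF30 shared none. AC008878.1, a protein-coding gene, overlaps ZNF358 on its own strand, and sequence shared with it was not examined. A gene on the other strand overlapped 138 members. The library kit keeps strand, but whether counting used it is not given.

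After knockdown few members changed in A549, ES2 and PANC1, and in MV3 more rose than fell. In A549 2 of 168 tested members were lower and 4 higher, against 7.83% lower and 5.93% higher among all 18411 genes tested (limma, adjusted p below 0.05). In ES2 2 of 131 were lower and 7 higher, beside 13.0% and 10.5% of all genes. In MV3 8 of 118 were lower and 31 higher, beside 19.5% and 16.3%. In PANC1 9 of 200 were lower and 11 higher, beside 13.4% and 11.3%. As shares of the members tested these are 1.19% and 2.38% for A549, 1.53% and 5.34% for ES2, 6.78% and 26.3% for MV3 and 4.5% and 5.5% for PANC1, so that in this fit the share of rising members was above its background in MV3 and in no other line. By voom on recovered reads it was also above that of all genes in ES2, where 23 of 131 members (17.6%) rose beside 14.3%. All members are protein-coding, and by limma protein-coding genes rose more often than all genes, at 19.6% for MV3 and 13.4% for ES2. The MV3 share of members by limma was above that value too. The share of protein-coding genes rising by voom is not given here, so the ES2 excess was not tested against it. Groups did not overlap for any of the members called, which comes from the same values as the calls and adds no support to them. The share of genes without overlap among all genes was not counted.

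The members tested had fewer reads than other genes. The median member tested had 62.6 reads per library for A549, 78.2 for ES2, 318 for MV3 and 90.8 for PANC1, and that of all protein-coding genes had 145.5, 264, 676 and 233. Counted in either direction between 2 and 5 FPKM, 2 of 67 members passed in A549 against 11.8% of other protein-coding genes. In the same band 5 of 55 passed in ES2 against 22.7%, 13 of 29 in MV3 against 40.4% and 10 of 85 in PANC1 against 25.3%. In MV3 the neighbouring bands lay on the other side, with 4 of 28 against 31.7% at 1 to 2 FPKM and 11 of 34 against 47.3% at 5 to 10 FPKM. So did the lowest MV3 band, with 1 of 15 against 20.2% at 0.5 to 1 FPKM. The highest MV3 bands did not, with 6 of 8 against 55.3% at 10 to 20 FPKM and 4 of 4 against 59.5% from 20 FPKM. With genes required to average at least 10 reads instead of 0.5 FPKM, members lower and higher were 7 and 10 of 164 for A549, 2 and 18 of 142 for ES2, 11 and 35 of 131 for MV3 and 25 and 13 of 207 for PANC1. In that setting 14.8% and 11.5% of all genes passed for A549, 19.3% and 16% for ES2, 21.5% and 21.1% for MV3 and 18.6% and 16.2% for PANC1.

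The median change of the members tested was small, at 0.04 for A549, 0.11 for ES2, 0.09 for MV3 and -0.07 for PANC1 on the log2 scale, beside -0.01, -0.02, 0.01 and -0.04 for all genes. The summed FPKM of all members was 723 ± 4.32 (SD, n = 3) in siC and 756 ± 23.4 in siI1 of A549. It was 417 ± 4.77 and 438 ± 6.24 in ES2, 612 ± 0.577 and 623 ± 2.72 in MV3, and 734 ± 37.6 and 708 ± 11.5 in PANC1. The sums overlapped between groups in PANC1, where the difference was smaller than the SD of siC, and did not in the other lines. When each PANC1 library was rescaled to the same FPKM sum, the median of all genes moved by -0.65, no member passed as higher and 109 of 203 (53.7%) passed as lower, beside 0.591% and 54.6% of all genes; the median member was then at -0.67, beside -0.68 for all genes. RN7SL2, an abundant small cytoplasmic RNA, held 50.1% to 56.2% of that sum in siC and 62.0% to 64.6% in siI1. Rises in PANC1 are therefore stated on the authors' scaling.

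**Figure D2:**
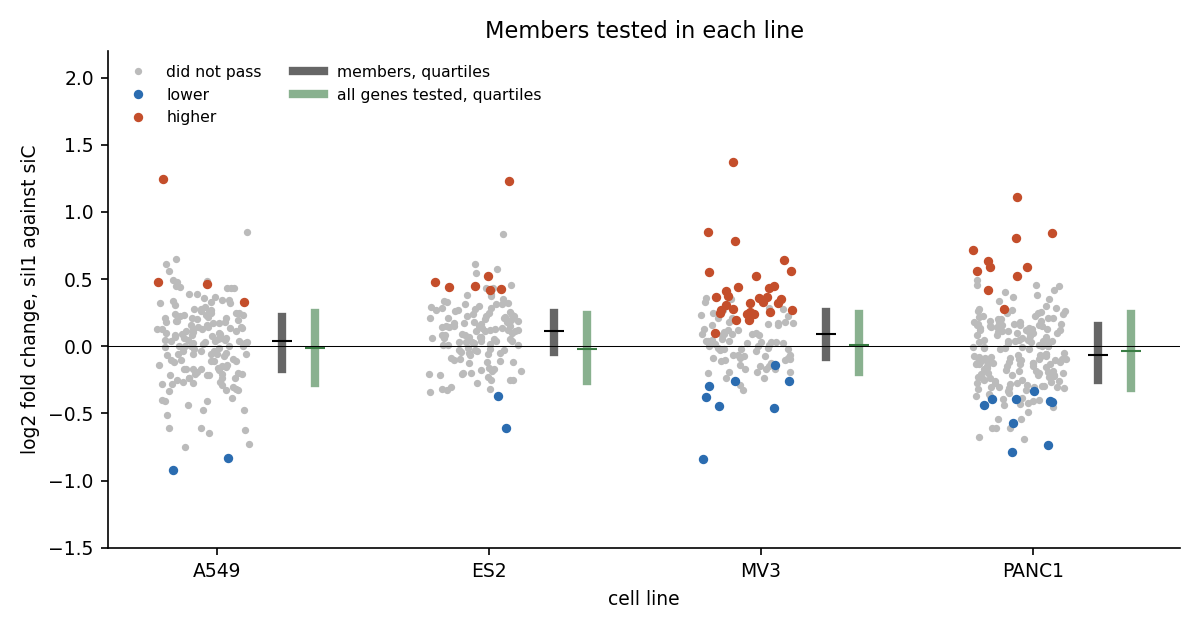
Log2 fold change of each tested member, siI1 against siC, in 4 lines, with members past the test coloured by direction. Bars give the quartiles and ticks the median of the members (black) and of all genes tested (green); in MV3 31 coloured points lie above 0 and 8 below, while PANC1 rises depend on the scaling, under which none remained with equal sums.

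ZNF460, a KRAB zinc finger gene with 11 fingers (chr19:57280051-57294069, plus strand, cluster 16), was the only one of 101 members tested in all lines that fell in each of them, where 2.51% of 12816 genes did so. In A549 it was at 30.5, 27.0 and 29.9 FPKM in siC and at 14.7, 15.2 and 18.7 in siI1. In ES2 it was at 16.6, 19.4 and 19.1 in siC and at 10.7, 12.8 and 12.2 in siI1. In MV3 it was at 34.7, 36.5 and 38.0 in siC and at 20.2, 19.9 and 20.4 in siI1. Every siC library of a line thus lay above every siI1 library, in the 3 lines given and in PANC1, where siC stood at 26.6, 23.7 and 28.7 and siI1 at 16.6, 14.1 and 14.3. The log2 fold changes were -0.83 ± 0.10 (SE) in A549 (adjusted p = 0.00524), -0.61 ± 0.09 in ES2 (adjusted p = 0.00540), -0.84 ± 0.04 in MV3 (adjusted p = 0.000113) and -0.79 ± 0.10 in PANC1 (adjusted p = 0.00298) by limma. A difference between the 4 changes did not pass the joint test (adjusted p = 0.380), and the call held in each line without any 1 library.

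The nearest protein-coding genes on either side of ZNF460, ZNF805 and ZNF543, lay below 0 in each line and did not pass. Their difference from ZNF460 was not tested. AURKC, the protein-coding gene beyond ZNF805, changed by 0.39 in MV3 and 0.09 in PANC1. Neither change passed, and AURKC was not tested in A549 or ES2. ZNF805, upstream on the same strand, changed by -0.21, -0.02, -0.09 and -0.30 in A549, ES2, MV3 and PANC1, and ZNF543, downstream, by -0.25, -0.05, -0.10 and -0.35, none of which passed. In PANC1 the groups of ZNF805 did not overlap (adjusted p = 0.0521, limma), while those of ZNF543 did. A long noncoding RNA, AC005261.2 (ENSG00000268205, chr19:57304305-57308562, same strand), starts 10235 bases beyond the end of ZNF460 and did fall. It was at 16.6, 18.6 and 14.2 FPKM in siC and 7.37, 7.49 and 10.6 in siI1 in A549, and 21.5, 21.7 and 21.8 against 11.9, 11.02 and 10.8 in MV3. The changes were -0.93 in A549 (adjusted p = 0.0170), -0.32 in ES2 (adjusted p = 0.0428), -0.92 in MV3 (adjusted p = 0.000109) and -0.72 in PANC1 (adjusted p = 0.00440) by limma. The call was lost without some single libraries, 4 in A549 (siC replicates 1 and 2, siI1 replicates 1 and 2) and 5 in ES2 (each except siC replicate 2), with adjusted p up to 0.0619 and 0.122. ZNF460-AS1 (listed as AC005261.1), which overlaps ZNF460 on the other strand, had at most 24 reads in any library and passed in no line.

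ZNF837, which has 8 fingers and no KRAB pattern (chr19:58367618-58381030, minus strand), had the largest rise among members that passed in A549, MV3 and PANC1, while in ES2 that was ZNF404. In A549 it went from 0.709, 1.21 and 1.21 FPKM in siC to 2.84, 2.97 and 3.53 in siI1, a log2 fold change of 1.24 ± 0.20 (SE; adjusted p = 0.0128, limma). In MV3 it went from 0.320, 0.307 and 0.427 to 1.51, 1.76 and 1.84, a change of 1.37 ± 0.13 (adjusted p = 0.000677, limma). The groups were clearly apart in both. In PANC1 the values were 0.870, 0.849 and 0.574 in siC and 2.75, 2.002 and 1.97 in siI1 (1.11 ± 0.18, adjusted p = 0.00788, limma). In ES2 they were 0.750, 2.13 and 1.60 in siC and 2.60, 2.47 and 3.76 in siI1, also without overlap, and the change of 0.84 ± 0.30 did not pass (adjusted p = 0.0975, limma). The calls rest on few reads, 6 to 28 per library in A549, 10 to 75 in MV3 and 10 to 39 in PANC1, and in A549 it was lost without siI1 replicate 3 (adjusted p = 0.0517). With the same sum per library the PANC1 change fell to 0.59 and no longer passed (adjusted p = 0.0713, limma). Its same-strand neighbour ZNF497, itself a member, rose in MV3 from 0.256, 0.262 and 0.260 FPKM to 0.690, 0.937 and 0.797 (0.78 ± 0.16, adjusted p = 0.0112, limma) and was at 1.32 and 2.67 FPKM on average in A549, where it did not pass. Noncoding genes nearby on the other strand also rose. ZNF497-AS1 (listed as AC012313.7), which overlaps the end of ZNF837, was higher in MV3 (0.97, adjusted p = 0.0123, limma), and AC012313.2 was higher in ES2 (1.01), MV3 (0.56) and PANC1 (1.42). A1BG-AS1 was higher in MV3 (0.30) and PANC1 (0.44). Whether reads of the 2 strands were counted apart is not given.

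ZNF358 (9 fingers, no KRAB pattern, chr19:7515292-7521025, plus strand, cluster 2) rose in ES2, MV3 and PANC1. In MV3 it stood at 12.9, 13.7 and 12.2 FPKM in siC and at 19.1, 19.3 and 19.2 in siI1, an increase of 0.55 ± 0.04 (SE; adjusted p = 0.000400, limma). In ES2 it went from 9.63, 7.96 and 7.91 to 12.8, 10.9 and 11.4 (0.44 ± 0.10, adjusted p = 0.0241, limma), and in PANC1 from 5.50, 5.68 and 3.22 to 9.19, 10.5 and 6.93 (0.84 ± 0.24, adjusted p = 0.0451, limma). These groups did not overlap, but PANC1 siC replicate 3 lay well under its group. The call was lost in ES2 without siC replicate 2 or 3 or siI1 replicate 1 or 3 (adjusted p up to 0.0733), and in PANC1 without siC replicate 1 or 3 or siI1 replicate 1 or 2 (up to 0.128). Equal sums per library brought the PANC1 change to 0.14. In A549 the change was 0.44 ± 0.15 and did not pass (adjusted p = 0.116, limma; 0.0353 without siI1 replicate 1), with siC at 6.16, 6.07 and 6.505 and siI1 at 6.91, 8.82 and 10.5 FPKM. No member was higher in all 4 lines, where 0.577% of all genes were, and with a mean of at least 10 reads ZNF358 and ZNF837 both were. MCOLN1, the nearest gene downstream of ZNF358 on the same strand, was lower in ES2 (-0.36, adjusted p = 0.0318, limma). It was also lower in MV3 (-0.26, adjusted p = 0.0347, limma) and did not pass in A549 or PANC1. PNPLA6, further downstream, passed in no line.

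**Figure D3:**
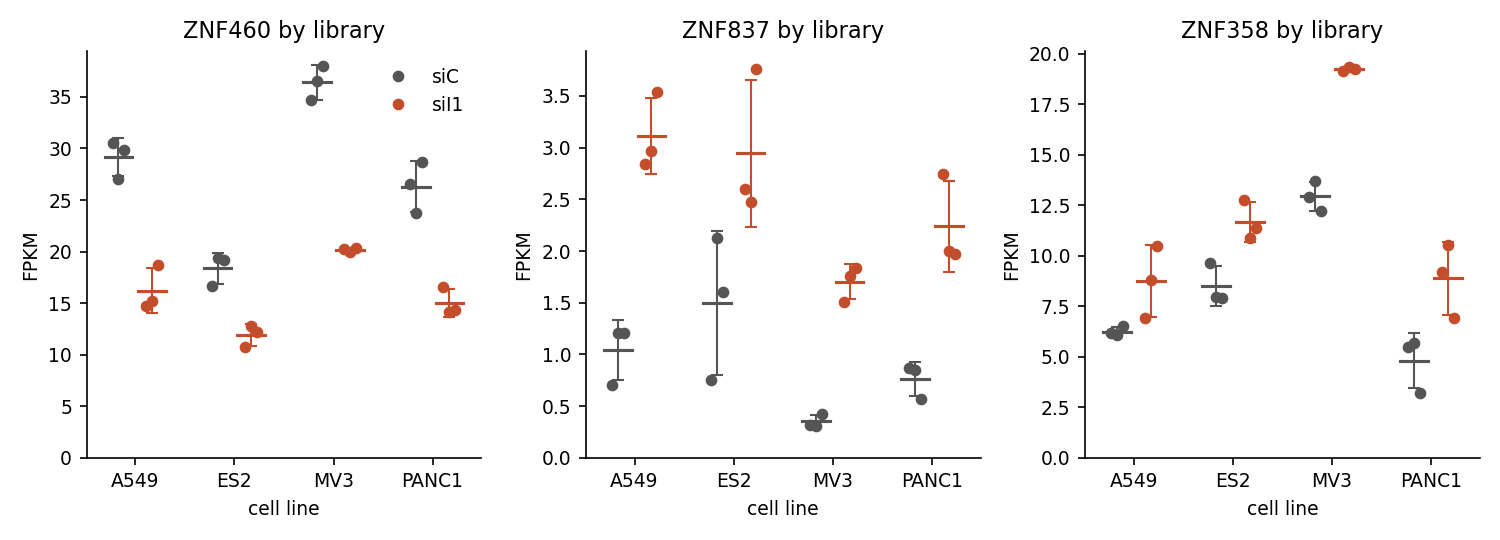
FPKM of ZNF460, ZNF837 and ZNF358 in each library of 4 lines, siC in grey and siI1 in orange, with the mean and SD of 3 libraries; axes start at 0 and differ between panels. ZNF460 was lower in siI1 in each line. ZNF837 and ZNF358 had higher siI1 means in each line, in PANC1 on the authors' scaling. The changes of ZNF837 in ES2 and of ZNF358 in A549 did not pass the test.

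Other members passed in 2 lines, ZNF30 and ZNF404 among them. ZNF30, a KRAB gene with 16 fingers, fell in A549 from 4.02, 5.03 and 3.91 FPKM to 1.70, 2.16 and 2.26 (-0.92 ± 0.16 SE, adjusted p = 0.0141, limma). It fell in PANC1 from 2.48, 2.40 and 2.82 to 1.81, 1.39 and 1.49 (-0.57 ± 0.13, adjusted p = 0.0208, limma). In ES2 and MV3 it changed by -0.17 and -0.23 and did not pass. The PANC1 call was lost without siC replicate 1 or 3 or siI1 replicate 2 or 3 (adjusted p up to 0.0698). ZNF404, a KRAB gene of cluster 12, rose in ES2 from 0.377, 0.369 and 0.280 FPKM to 1.43, 1.45 and 1.53 (1.23 ± 0.17, adjusted p = 0.00436, limma), on 5 to 32 reads per library. It rose in MV3 from 0.831, 1.62 and 1.05 to 2.83, 2.45 and 2.095 (0.85 ± 0.19, adjusted p = 0.0165, limma), a call lost without siI1 replicate 1 or 2 (adjusted p up to 0.0568). Of all members, 42 passed in 1 line, 11 in 2, 2 in 3 and 1 in 4. The filter limits these counts, since 34 members were tested in no line, 41 in 1, 38 in 2, 32 in 3 and 101 in 4. The same counts over all genes are not given here, so whether these are few or many was not tested.

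In MV3 the remaining falls among named members were moderate. ZNF473, a component of histone pre-mRNA 3′ end processing known as ZFP100, went from 7.69, 8.14 and 8.05 FPKM to 5.92, 6.14 and 5.94 (-0.38 ± 0.04 SE, adjusted p = 0.00107, limma). ZNF530 went from 3.72, 4.55 and 4.12 to 2.76, 3.07 and 2.78 (-0.46 ± 0.08, adjusted p = 0.00749, limma). ZNF121, among the 5 highest members over the control libraries, went from 28.003, 28.5 and 29.5 to 23.7, 22.7 and 23.2 (-0.30 ± 0.03, adjusted p = 0.00107, limma). All 3 kept their call without any 1 library, and none of them passed in another line. Among the rises ZNF772 (0.64 ± 0.06, adjusted p = 0.000542, limma) went from 2.45, 2.27 and 2.41 to 4.07, 3.91 and 3.98, and ZNF708 (0.56 ± 0.07, adjusted p = 0.00171, limma) from 2.27, 2.08 and 2.43 to 3.65, 3.51 and 3.51. The 31 rises ranged from 0.10 for ZNF584 to 1.37 for ZNF837. Of these, 15 lie in cluster 16, which also held 45 of the 118 members tested in MV3.

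ES2 and A549 added smaller rises. In ES2 ZNF83, a gene of fingers without a KRAB pattern, went from 2.60, 2.66 and 2.81 FPKM to 3.9995, 4.11 and 4.14 (0.52 ± 0.08 SE, adjusted p = 0.00491, limma), and the call held without any 1 library. ZNF83 was at 0 in A549 siC libraries. ZNF226 (0.48) and ZNF426 (0.45) also passed in ES2 and each lost the call in 5 of the 6 fits that leave out a library, with adjusted p up to 0.132 and 0.0963; ZNF226 was also higher in MV3, by 0.33. In A549 ZNF548 (0.48) and ZNF160 (0.46) passed, with adjusted p = 0.0442 and 0.0327 (limma), and lost the call in 5 of 6 such fits (up to 0.128 and 0.105). ZNF160 was also higher in MV3 (0.45, adjusted p = 0.00350, limma), from 1.81, 1.91 and 2.01 FPKM to 2.79, 2.74 and 2.81.

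In PANC1 the falls beside ZNF460 and ZNF30 were led by ZNF850, a KRAB gene with 29 fingers, which went from 4.39, 4.85 and 4.95 FPKM to 2.37, 2.86 and 2.71 (-0.73 ± 0.10 SE, adjusted p = 0.00383, limma). ZNF850 was not tested in ES2 and MV3, where its siC means were 0.0634 and 0.00564 FPKM. ZNF780A, the abundant PANC1 member, went from 33.2, 29.3 and 39.5 to 26.2, 24.6 and 24.99 (-0.41 ± 0.11, adjusted p = 0.0366, limma), a call lost without siC replicate 1 or any siI1 library (adjusted p up to 0.104). Its neighbour ZNF780B changed by -0.13 ± 0.14 there and did not pass, and rose by 0.36 in MV3. ZNF443 (-0.44, adjusted p = 0.0484, limma) shares 21.6% of its 76-base stretches with ZNF799 and lost the call in every fit that leaves out a library. Among the rises ZNF524, a GC-rich gene with 4 fingers, went from 7.76, 9.42 and 6.57 FPKM to 14.8, 13.7 and 13.7 (0.80 ± 0.13, adjusted p = 0.00676, limma). ZNF880 went from 1.76, 1.39 and 1.31 to 2.95, 2.68 and 2.63 (0.72 ± 0.13, adjusted p = 0.00983, limma). Neither rise passed with equal sums per library.

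The change differed between lines for 25 of the 101 members tested in all 4, beside 45.0% of all 12816 genes (limma F test over 24 libraries, adjusted p below 0.05). ZNF787, which has 7 fingers and no KRAB pattern, had the smallest p among members. It fell in MV3 from 25.9, 26.7 and 24.5 FPKM to 16.9, 19.2 and 20.3 (-0.45 ± 0.07 SE, adjusted p = 0.00444, limma). In ES2 it fell from 11.7, 13.8 and 13.2 to 10.6, 9.71 and 9.35 (-0.37 ± 0.08, adjusted p = 0.0203, limma), lost without siC or siI1 replicates 2 or 3 (up to 0.0725). In A549 and PANC1 its changes were 0.23 and -0.10 and did not pass. The test of the difference gave an adjusted p of 0.000300 (limma).

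ZNF146 moved in opposite directions. In A549 it rose from 50.9, 57.2 and 50.6 FPKM to 63.3, 66.3 and 70.5 (0.33 ± 0.07 SE, adjusted p = 0.0268, limma), and in MV3 it fell from 45.7, 45.0 and 43.1 to 42.0, 38.9 and 40.7 (-0.14 ± 0.04, adjusted p = 0.0385, limma). In PANC1 the change was -0.17 and did not pass. The difference between lines passed (adjusted p = 0.000405, limma), although either call was lost in 4 of the 6 fits that leave out a library, with adjusted p up to 0.0938 in A549 and 0.115 in MV3. ZNF574, which lies in cluster 11 with ZNF526, was the other member with opposite calls. It was lower in MV3, from 15.2, 14.1 and 13.2 to 11.2, 12.9 and 11.2 (-0.26, adjusted p = 0.0380, limma), and higher in PANC1, from 3.87, 3.85 and 3.68 to 5.11, 5.70 and 4.93 (0.42, adjusted p = 0.0138, limma).

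The other members with the smallest p of this test follow. ZNF627 rose in MV3 by 0.37 and in PANC1 by 0.56, from 4.79, 4.51 and 3.92 FPKM to 6.92, 6.56 and 6.67, and changed by -0.05 in A549 and -0.18 in ES2. ZNF628 rose in PANC1 by 0.52 ± 0.10 (SE) and was at -0.38 in A549, -0.30 in ES2 and -0.20 in MV3, none of which passed. ZNF507 passed in PANC1, where it fell from 6.03, 5.87 and 6.21 to 4.65, 4.69 and 4.71 (-0.34 ± 0.06). The PANC1 calls of ZNF628 and ZNF507 were lost without siC replicate 1 (adjusted p = 0.0520 and 0.0511, limma). ZNF776 was higher in ES2 by 0.42, a call lost in each fit that leaves out a library (adjusted p up to 0.106). It was higher in MV3 by 0.27, lost without siC or siI1 replicates 1 or 2 (up to 0.0613), and was at -0.22 in PANC1, which did not pass. With equal sums per library ZNF627 and ZNF628 turned to -0.13 and -0.15 in PANC1.

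Members were also divided by their proteins, translated from GENCODE coding sequences of 244 members. A KRAB pattern was found in 205 and not in 39, with a pattern whose wording was loosened after the values were known. The pattern was not compared with annotated domains, so a member without it may still carry a KRAB domain. Members with the pattern had a median of 13 fingers and 42.1% GC in the transcript, and those without it a median of 9 fingers and 59.6% GC. All 4 lines tested 36.6% of the first and 66.7% of the second. In PANC1 8 of 169 tested members with the pattern were lower and 3 higher, while 1 of 30 without it was lower and 8 higher; the medians were -0.08 and 0.16. In MV3 2 of 87 with the pattern were lower and 21 higher, and 6 of 31 without it lower and 10 higher. In A549 the counts were 2 and 2 of 137 with and 0 and 2 of 31 without, and in ES2 1 and 5 of 102 with and 1 and 2 of 29 without.

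GC content moved with this division, and its part in the result was not tested. Across the PANC1 members the Spearman correlation of log2 fold change with transcript GC was 0.28 (199 members), and across the other protein-coding genes it was 0.30, all from the same 6 libraries. In ES2 the values were -0.24 and -0.23, in A549 0.00474 and -0.15, and in MV3 -0.00529 and 0.08. Of 22 PANC1 members with at least 55% GC, a division chosen after the values were seen, 19 were above 0 and 8 passed as higher. Among other protein-coding genes of that GC 61.3% were above 0 and 22.5% passed as higher. Of the 177 PANC1 members under 55% GC, 69 (39.0%) were above 0, 3 were higher and 9 lower. Among other protein-coding genes under 55% GC 38.5% were above 0, 9.76% higher and 21.2% lower. Correlation with the number of fingers was -0.22 for A549, -0.09 for ES2, -0.10 for MV3 and -0.23 for PANC1. These are descriptions over genes that share libraries, and equal sums per library put the PANC1 rises under 0 or short of the threshold.

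**Figure D4:**
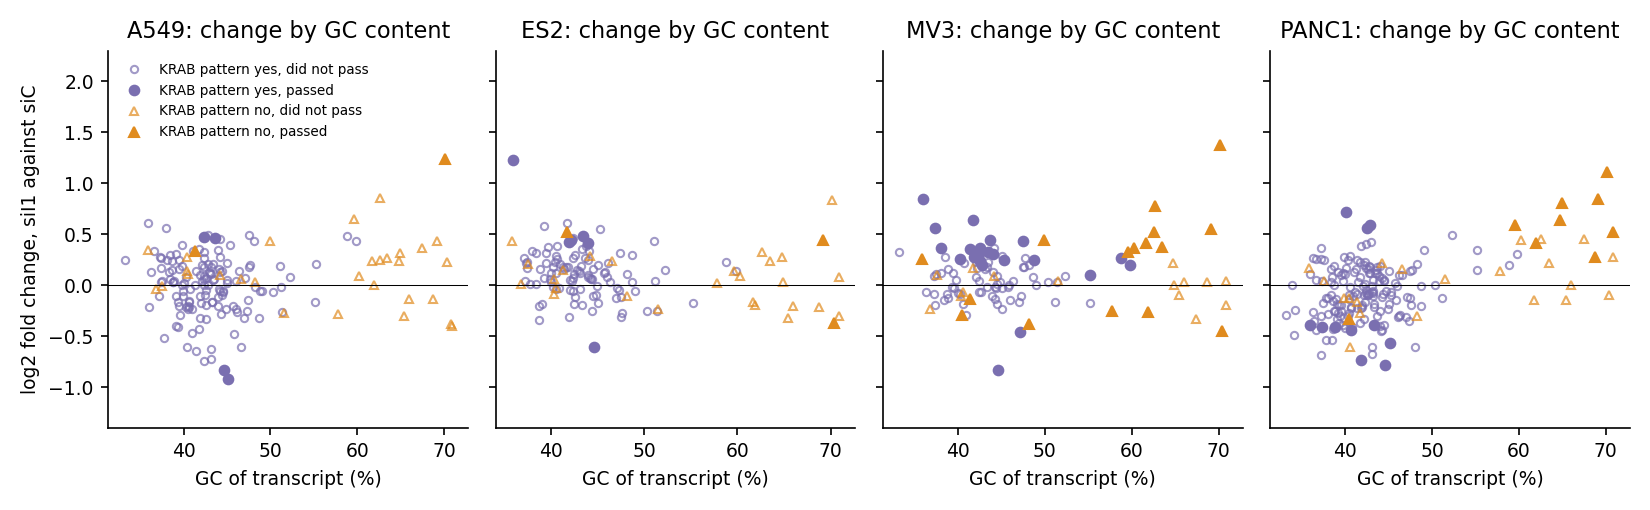
Log2 fold change of the tested members, siI1 against siC, by the GC content of the transcript in percent, 1 panel per line, with members that have a KRAB pattern as circles and those without it as triangles, filled where they passed. In PANC1, on the authors' scaling, 19 of 22 members with at least 55% GC lie above 0; in ES2 12 of 20 do.

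Genes outside the family are given for scale. ZNF-named genes of other chromosomes were lower and higher in 14 and 13 of 219 tested for A549, 21 and 19 of 206 for ES2, 18 and 34 of 193 for MV3 and 20 and 10 of 208 for PANC1, with medians of 0.04, 0.00404, 0.05 and -0.05. The other protein-coding genes of chromosome 19 were lower and higher in 142 and 41 of 576 in ES2 and in 42 and 161 of 638 in PANC1. Their medians were -0.14 and 0.13, beside 0.11 and -0.07 for the members. In A549 they were lower and higher in 72 and 41 of 658 and in MV3 in 150 and 128 of 613. Of the 19 other C2H2-named genes of chromosome 19 (ZFP, ZSCAN, ZIK1, ZIM, PEG3 and ZBTB genes) 0 passed in A549 and ES2, with 1 of 9 and 1 of 4 at an unadjusted p under 0.05 by limma (counts by voom were not taken for these genes). In MV3 1 of 5 was lower and 1 higher, and in PANC1 1 of 8 was lower.

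The silencing machinery that KRAB proteins use was examined beside the members. Of 27 genes described, all tested in each line, 2 were lower and 1 higher for A549, 5 and 2 for ES2, 8 and 5 for MV3 and 5 and 1 for PANC1. In either direction 11.1% passed for A549, 25.9% for ES2, 48.2% for MV3 and 22.2% for PANC1, beside 13.8%, 23.5%, 35.7% and 24.8% of all genes and 19.3%, 31.4%, 46.4% and 30.9% of protein-coding genes. FAM208A (TASOR), the scaffold of the HUSH complex that silences transposons and represses zinc finger gene clusters, fell in every line. In PANC1 it went from 19.96, 17.4 and 20.2 FPKM to 6.88, 8.78 and 7.20 (-1.28 ± 0.11 SE, adjusted p = 0.00127, limma) and in A549 from 17.7, 19.9 and 17.7 to 9.997, 9.38 and 9.796 (-0.89 ± 0.07, adjusted p = 0.00143, limma). In ES2 it fell from 20.97, 20.2 and 22.7 to 13.2, 14.95 and 13.6 (-0.60), and in MV3 from 19.3, 18.9 and 19.9 to 14.4, 14.2 and 13.5 (-0.45). UHRF1, which brings DNMT1 to newly copied DNA, also fell in each line, by -0.87 for A549, -0.47 for ES2, -0.85 for MV3 and -1.23 for PANC1. Groups did not overlap for either gene, and both held without any 1 library. The other core genes of the HUSH complex, MPHOSPH8 (0.03, 0.13, -0.03 and 0.10 in A549, ES2, MV3 and PANC1) and PPHLN1 (-0.04, -0.14, -0.17 and -0.14), passed in no line.

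Other parts moved in some lines. TRIM28, the corepressor itself, fell in ES2 from 148, 164 and 159 FPKM to 128, 115 and 124 (-0.36 ± 0.06 SE, adjusted p = 0.00789, limma) and in MV3 by -0.21, a call lost without siC replicate 2 (adjusted p = 0.0502). In PANC1 it was at 147, 154 and 143 in siC and 151, 152 and 146 in siI1, which overlap. SETDB1 passed in no line, with changes from -0.23 to 0.10. SUMO2, a small protein modifier, fell in MV3 (-0.27). Of the HP1 proteins CBX1 rose in ES2 (0.50) and MV3 (0.29), while CBX3 rose in A549 (0.30) and fell in PANC1 (-0.16), calls lost in 5 and 6 of the 6 fits that leave out a library (adjusted p up to 0.0961 and 0.143). HDAC1 (0.18) and CHD3 (0.14), both of the NuRD complex, rose in MV3, calls lost without siI1 replicate 2 (adjusted p = 0.0505) and in 5 of 6 such fits (up to 0.110).

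The methyltransferases were mostly lower where they passed. DNMT1 fell in ES2 (-0.42), MV3 (-0.52) and PANC1 (-0.70), the ES2 call being lost in 4 of 6 fits that leave out a library (adjusted p up to 0.0845). SUV39H1 fell in MV3 (-0.56) and PANC1 (-0.31), the latter lost without siC replicate 1 (adjusted p = 0.0574), and SUV39H2 fell in MV3 (-0.26), lost without siC replicate 1 (adjusted p = 0.0565). In MV3 DNMT3B fell (-0.37) and DNMT3A rose (0.53). The chromatin remodeller ATRX rose in ES2 (0.56) and MV3 (0.48), while its partner DAXX fell in ES2 (-0.76), from 2.04 to 0.991 FPKM on average. MORC2, a HUSH partner, rose in PANC1 (0.30), lost in 5 of 6 fits (up to 0.0877) and turned to -0.39 with equal sums per library. Whether any of these changes bears on the members was not tested.

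**Figure D5:**
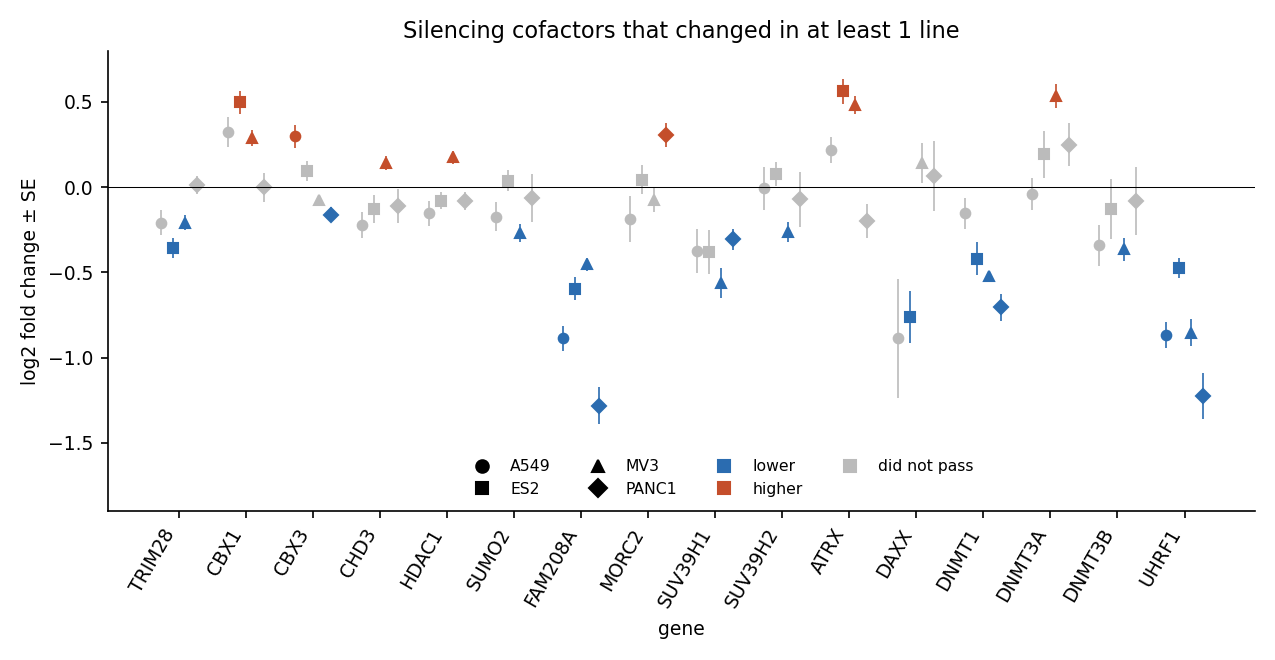
Log2 fold change with its standard error, siI1 against siC, of the silencing cofactors that passed in at least 1 line, with a symbol per line and colour for direction. FAM208A and UHRF1 lie under 0 and passed in each of 4 lines; PANC1 values are on the authors' scaling, and MORC2 there reversed with equal sums per library.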

How the data were processed

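The 24 libraries were grouped by the labels. Per the submitters' processing notes and methods, the authors clipped reads with Cutadapt 1.14, aligned paired reads of 76 bases to hg38 with HISAT2 2.1.0, counted reads per gene of the Ensembl annotation with featureCounts 1.5.3 and tested each line with edgeR 3.30.3 and TMM scaling; SAMtools 1.5 is also named. The authors deposited a table per line. The unit, worked out from the values, is FPKM on the listed gene length as the authors deposited it, normalised within each line, and its values give whole reads in 100% of values (tolerance 0.01). The tables also hold the authors' fold changes and p-values, which were not used. No values of other samples were used.

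The rule that picks the members uses no measured value, but the rule, the lists and the tests were chosen with earlier results of these data known. Per line, log2(FPKM + 0.5), which understates changes of low values, was tested with limma 3.58.1 (R 4.3.3; intensity trend, two-sided) over genes averaging 0.5 FPKM or more, Benjamini-Hochberg adjusted over all of them, at 0.05; 24 libraries entered the F test between lines. The fits were tested on simulated data. Replicates differed beyond sampling noise, so each counted once. Depth limits precision: A549 has the shallowest libraries and MV3 the deepest.

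Named members passed one way in every line, were the 4 largest falls or rises in a line with a mean of at least 1 FPKM, were the 5 highest in siC, or had the 6 smallest p of the F test; to these come IGF2BP1 and each cofactor that passed; some genes of the cofactor and marker lists are not reported here. ZNF404 in ES2, ZNF497, ZNF574, ZNF584, ZNF780B, AC005261.2, ZNF805, ZNF543, AURKC, MCOLN1, PNPLA6, ZNF347, ZNF677, ZNF844 and further members named for their level or shared sequence were chosen after their values were seen. Positions, strands and coding sequences came from GENCODE release 44 (hg38); fingers and KRAB patterns were found in its translated coding sequences, since no protein table was used here. Python 3.11.15, numpy 2.4.6, pandas 2.3.3 and matplotlib 3.10.9 were used. Alternatives were other pseudocounts (0.1, 1), filters, scaling, voom on recovered reads, a replicate block and leaving out libraries.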

Additional observations from a re-analysis of the deposited data

Results flagged for a closer look

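The change after knockdown differed between lines for the following named genes, each by the limma F test with adjustment over all genes tested. Among the members the adjusted p was 3e-04 for ZNF787, 0.000405 for ZNF146, 0.000629 for ZNF627, 0.000633 for ZNF628 and 0.000657 for ZNF507. It was 0.00315 for both ZNF121 and ZNF776, 0.00976 for ZNF524, 0.01 for ZNF30, 0.0106 for ZNF780A, 0.0237 for ZNF473 and 0.031 for ZNF548. Among the silencing cofactors it was 3.73e-05 for FAM208A, 8.08e-05 for ATRX and 0.000183 for CBX3. It was 0.00272 for UHRF1, 0.00565 for DNMT1, 0.00835 for HDAC1, 0.00917 for CBX1, 0.00961 for TRIM28, 0.0135 for DNMT3A, 0.0152 for DAXX and 0.0259 for MORC2. FAM208A and UHRF1 fell in each line, so there the size of the fall differed. IGF2BP1 itself differed (9.77e-05), as did AC005261.2, the noncoding RNA beyond ZNF460 (0.0171), while ZNF460 did not pass this test.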

How the results depend on the processing

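ZNF460 was the member lower in all 4 lines in each of the 14 alternatives. With a mean of at least 10 recovered reads, members lower and higher numbered 7 and 10 in A549 (14.8% and 11.5% of all genes). In that setting 18 were higher in ES2 (16%), 25 lower in PANC1 (18.6%) and 2 higher in all lines. By voom they numbered 8 and 15 in A549 (12.7% and 9.98% of all genes), 23 higher in ES2 (14.3%), 14 lower in MV3 (22.6%), 26 lower in PANC1 (17.4%) and 1 higher in all lines. Without a filter 2 were higher in A549 (2.99% of all genes), 4 higher in ES2 (5.45%) and 3 lower in PANC1 (5.49%). With the same sum per library 20 were higher in MV3 (11.8% of all genes), 109 lower and 0 higher in PANC1 (54.6% and 0.591%), and 73 differed between lines; ZNF627 (-0.13), ZNF628 (-0.15) and MORC2 (-0.39) reversed in PANC1. Same-numbered libraries of siC and siI1 did not deviate together (correlations from -0.0562 to 0.0711), so numbers were not taken as pairs. With the replicate block 1 member was lower and 1 higher in A549 (3.38% and 2.06% of all genes), 1 lower and 4 higher in ES2 (8.53% and 6.91%) and 4 lower in PANC1 (10.1%). Leaving out 1 library gave 2 lower and 0 to 6 higher in A549 (4.32% to 5.62% and 2.85% to 4.13% of all genes). For ES2, 1 to 2 were lower and 2 to 4 higher (8.85% to 10.2% and 6.75% to 8.39%). For MV3, 6 to 9 were lower and 19 to 25 higher (15.2% to 18.5% and 11.7% to 15.6%). For PANC1, 2 to 12 were lower and 5 to 10 higher (7.84% to 12.3% and 6.59% to 11.9%). Members that differed between lines numbered 13 to 25 in these fits, which hold fewer samples. For counts between lines or over all lines, shares of all genes under the alternatives are not given here. The cause of the other moves was not tested. Of 43 pairs of a named member and a line, 18 kept their side of the threshold in all 14 alternatives. Pseudocounts and the 1 FPKM filter moved no count by over 1.5 times. Depth limits the tests most in A549, where the median member had 62.6 reads.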
